A study of Zea mays with 6 samples.

Results

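Aquaporins and ion transporters are the membrane proteins that let water and mineral ions cross the membranes of plant cells. The genes described here were taken from the deposited RNA-seq table by the words of their protein descriptions, such as aquaporin, potassium, sulfate transporter, cation, metal, zinc transporter or antiporter, without use of their expression. This choice gave 62 of the 5546 genes of the table. By their descriptions, 25 of the 62 were channels, carriers or exchangers, namely 8 aquaporins, 3 potassium channels, 2 potassium transporters, 2 sulfate transporters, 5 cation or proton antiporters, 4 metal transporters and 1 organic cation transporter. Another 10 were heavy metal-associated proteins. The other 27 were matched by other words or by the letters of a longer word, since DETOXIFICATION, desiccation and replication all contain the letters of cation. Of these 27 genes, 14 encode multidrug and toxic compound extrusion (MATE) proteins named DETOXIFICATION, 4 metal ion binding proteins, 3 metalloproteases, 3 desiccation-related proteins, 2 cationic amino acid transporters and 1 a replication protein A subunit. The name aquaporins and ion transporters therefore fits only part of the 62 genes, and the classes are described apart. No phosphate transporter, plasma membrane proton pump or boron transporter was among them.

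The libraries came from nodes of field-grown maize (Zea mays) at 28 days. By the labels internodes were included, whereas the study's Methods name nodes alone, counted from the last brace root. WT was the inbred line B73, with 3 libraries. The mutant zmte1-2, also with 3 libraries, is a recessive dwarf line from an EMS mutant collection that was backcrossed to B73 and carries a premature stop codon in the first exon of ZmTE1, so 1 mutant allele was sequenced and EMS changes elsewhere in the line were not analysed here. ZmTE1 encodes an RNA-binding protein of the Mei2-like family.

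Aquaporins form the water pores of the plasma membrane (PIP subfamily) and of the vacuole (TIP subfamily), and the NIP subfamily also conducts small uncharged solutes such as silicic and boric acid. In growing stems, water taken up through these pores and the potassium that is held in the vacuole as an osmoticum fill the cells as they expand. Inward and outward potassium channels, potassium transporters and proton-coupled antiporters set how much potassium a cell holds, and sulfate and metal carriers supply mineral nutrients to the growing tissue.

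Expression was given as FPKM, in which the fragments of a gene are divided by its length in kilobases and by the size of the library, and every gene of the table had been called by the authors between the genotypes. Family members that the authors had not called were not analysed here. ZmTE1 itself (GRMZM2G085113) was at 0.51, 1.19 and 1 FPKM in WT libraries 1 to 3 and at 0.33, 0.10 and 0.49 FPKM in zmte1-2 libraries 1 to 3, lower in each mutant library but too low to be tested. Summed over all listed genes, the libraries held 74348 to 88628 FPKM. The smallest steps between low FPKM values were nearly equal in all 6 libraries, at 0.0530 to 0.0540 FPKM for a gene of 1 kilobase, with 73.2% to 81.6% of the low values within 0.2 of a whole multiple, so their depths appear similar. Library 2 of zmte1-2 stood apart, whose log2 levels correlated across genes at 0.729 with those of zmte1-2 library 1 and at 0.627 with those of library 3 (Pearson), while libraries 1 and 3 correlated at 0.936. WT library 1 stood apart to a lesser degree, at 0.795 and 0.838 with WT libraries 2 and 3 against 0.926 between those. Results that rest on these libraries are therefore also given without them. These libraries were singled out from the same data, and leaving out the library that differs favours a call in the direction of the others. A call gained by such an omission is therefore a description and no support for a rise or a fall. The labels number the libraries of a genotype 1 to 3 without saying whether these are replicates or node positions. Here they were taken as replicates. Whether each library was made from other plants is not stated either, and the p-values therefore cover no more than the spread among these 6 libraries. In such bulk samples, fewer cells of a type and less RNA per cell cannot be told apart.

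The levels were compared between zmte1-2 and WT with limma on log2(FPKM + 0.5), with Benjamini-Hochberg adjustment over all 3987 genes that reached 1 FPKM in 3 or more libraries, and genes with an adjusted p under 0.05 count as called. Of the 62 genes, 49 passed this minimum, and the other 13 were not tested. A gene below 1 FPKM in every library of 1 genotype was tested only if it reached 1 FPKM in all 3 of the other. The minimum favours a call for such genes, so their calls are descriptions, and called genes of this kind are marked below. In zmte1-2, 16 of the 49 fell (32.7%) and 5 rose (10.2%), against 34.2% and 6.02% of all tested genes, so the share that fell was near that of the table. The median log2 fold change was 0.30 over the 49 genes and -1.08 over all tested genes. The median of the 49 genes had no stable sign, being -0.36 without zmte1-2 library 2 and -0.66 without zmte1-2 library 3, whereas that of all tested genes was -1.06 and -1.07. Without the FPKM minimum the median over all 62 genes was -0.35. Over the 20 tested channels, carriers and exchangers, 5 fell and 3 rose. A positive fold change was found in 13 of the 20, with a median of 1.08, against 1299 of all 3987 tested genes. The authors' call included a minimum fold change, so such a median mostly shows which sign was more frequent. Counted over all 62 genes, the libraries of the genotypes did not overlap for 33 genes, 24 of them lower and 9 higher in zmte1-2. Over all listed genes, 48.8% lay lower and 11.4% higher without overlap.

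**Figure D1:**
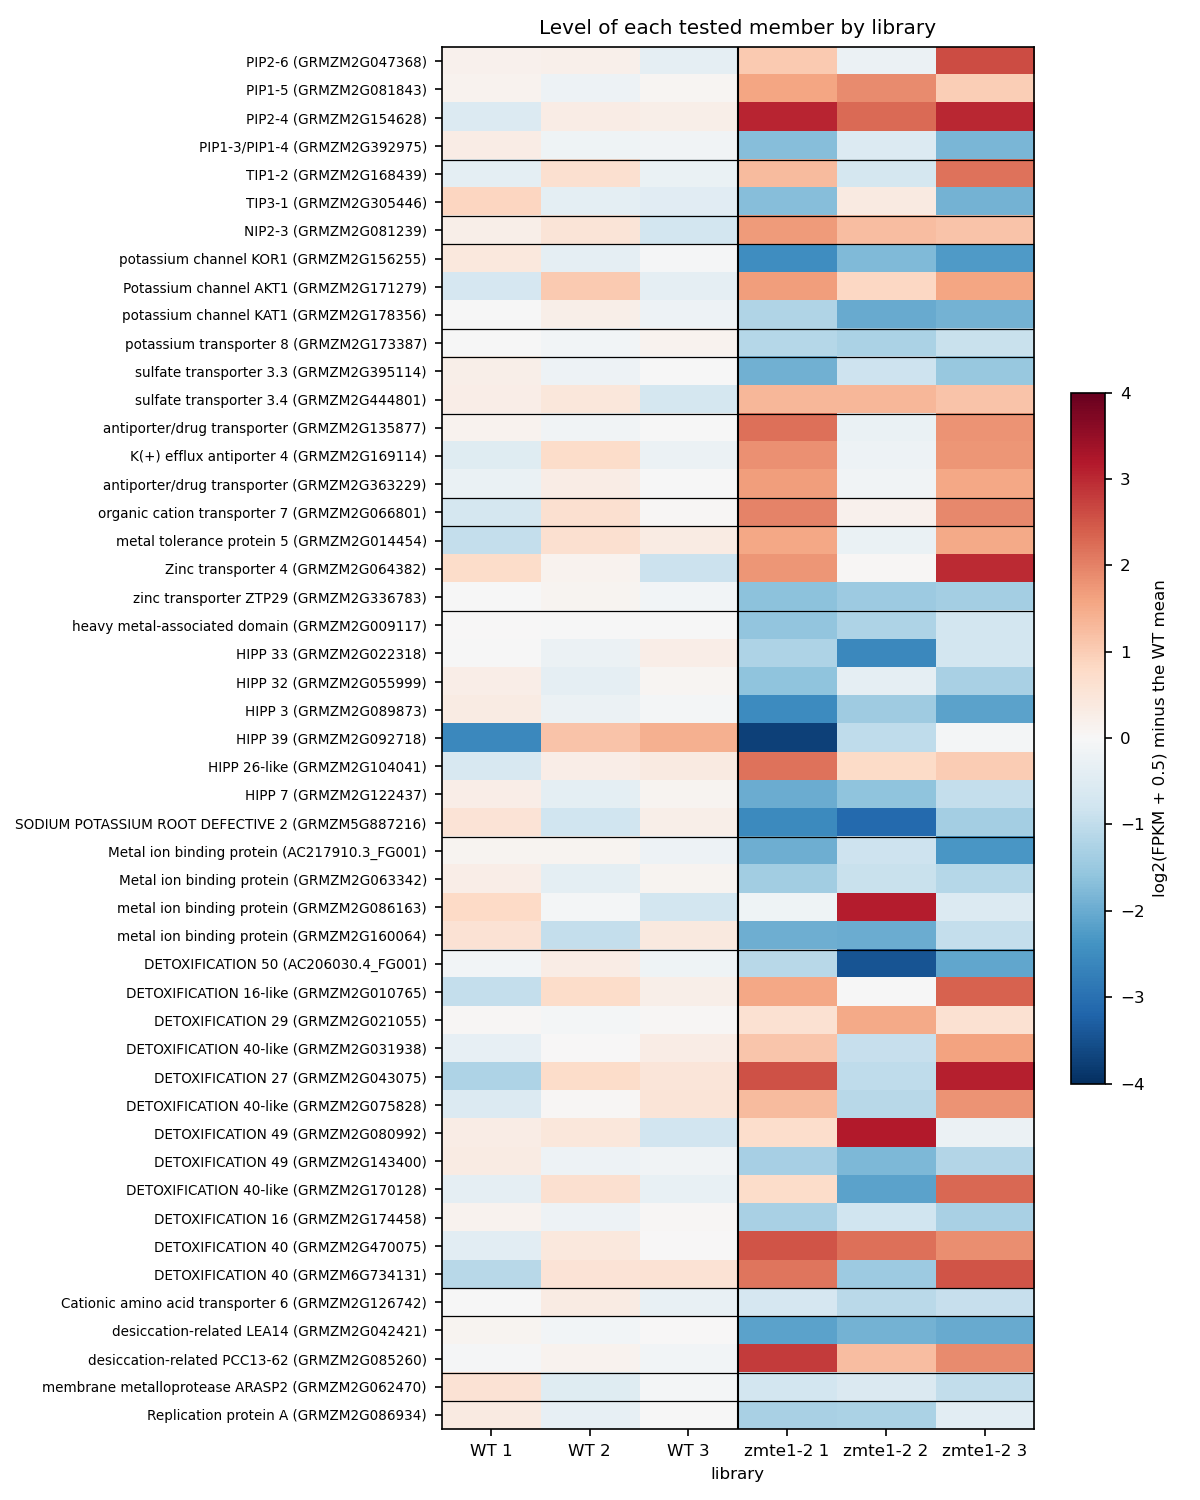
Level of each of the 49 tested genes (rows, grouped by class with lines between classes) in each of the 6 libraries (columns), as log2(FPKM + 0.5) minus the mean of the 3 WT libraries, red for higher and blue for lower. The classes hold rows of both colours, and in 15 rows zmte1-2 libraries 1 and 3 lay above every WT library while zmte1-2 library 2 did not.

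Aquaporins were the class with the most genes that rose. Of 7 tested aquaporins, PIP2-4, PIP1-5 and NIP2-3 rose in zmte1-2 and none fell by the limma call, while 1 was lower at an unadjusted p under 0.05. Over all tested genes 6.02% rose and 34.2% fell. No aquaporin was called on leaving out WT library 1, WT library 3 or zmte1-2 library 1 alone, or with the library number as a replicate block. In these fits 2 or 3 aquaporins were higher at an unadjusted p under 0.05. PIP2-4 (GRMZM2G154628, chromosome 5 from 195239679 to 195242694), a plasma membrane aquaporin of the PIP2 group, whose members are efficient water channels, was at 3.60, 6.80 and 6.51 FPKM in WT and at 49.0, 28.3 and 47.3 FPKM in zmte1-2. Every mutant library lay well above every WT library. The log2 fold change was 2.78 (SE 0.43, limma adjusted p = 0.0127). PIP1-5 (GRMZM2G081843, chromosome 4 from 170004633 to 170006133) belongs to the PIP1 group, whose members often need a PIP2 partner to reach the plasma membrane. Its level was far lower, at 0.66, 0.41 and 0.61 FPKM in WT and 2.68, 3.45 and 1.60 FPKM in zmte1-2, again with no overlap between the genotypes. PIP1-5 passed the FPKM minimum only through zmte1-2. Its log2 fold change was 1.498 (SE 0.33, limma adjusted p = 0.0215).

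NIP2-3 (GRMZM2G081239, chromosome 9 from 4504176 to 4507865), a member of the NIP2 group that in rice includes silicic acid channels, was at 5.76, 7.10 and 2.68 FPKM in WT and at 16.9, 12.1 and 11.2 FPKM in zmte1-2. The genotypes did not overlap, but the call was at the threshold, with a log2 fold change of 1.36 (SE 0.46, limma adjusted p = 0.0499). It was lost with robust variance moderation, with a pseudocount of 0.1, without the FPKM minimum, with the replicate block and on leaving out any single library other than zmte1-2 library 2 (limma adjusted p from 0.0501 to 0.164).

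The most abundant aquaporin differed the other way. The gene described as PIP1-3/PIP1-4 (GRMZM2G392975, chromosome 4 from 153654423 to 153658268) was at 264, 194 and 198 FPKM in WT and at 65.9, 149 and 60.6 FPKM in zmte1-2. All mutant libraries lay below all WT libraries, with library 2 the nearest to WT. The log2 fold change of -1.36 (SE 0.48) did not pass at a limma adjusted p of 0.0553, and without zmte1-2 library 2 it was -1.77 and passed (limma adjusted p = 0.0109). Its description covers a pair of near-identical genes, so its FPKM depends on how reads shared between the copies were counted, and the sources used here do not give this. This gene made up 88.6%, 79.2% and 86.8% of the summed FPKM of the 8 aquaporins in WT libraries 1 to 3 and 34.6%, 70.6% and 25.6% in zmte1-2 libraries 1 to 3. The sum over all 8 aquaporins, 299, 245 and 229 FPKM in WT and 190, 211 and 237 FPKM in zmte1-2, overlapped between the genotypes. The other 7 aquaporins together came to 34.1, 51.0 and 30.2 FPKM in WT and to 124, 62.0 and 176 FPKM in zmte1-2, higher in every mutant library. The share of PIP1-3/PIP1-4 was lower in every mutant library, though 70.6% in zmte1-2 library 2 was near the 79.2% of WT library 2. Each of the 8 aquaporins was listed because the authors had called it between the genotypes, and aquaporins outside the list are missing from these sums. The values therefore do not show how the aquaporins as a whole differed.

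**Figure D2:**
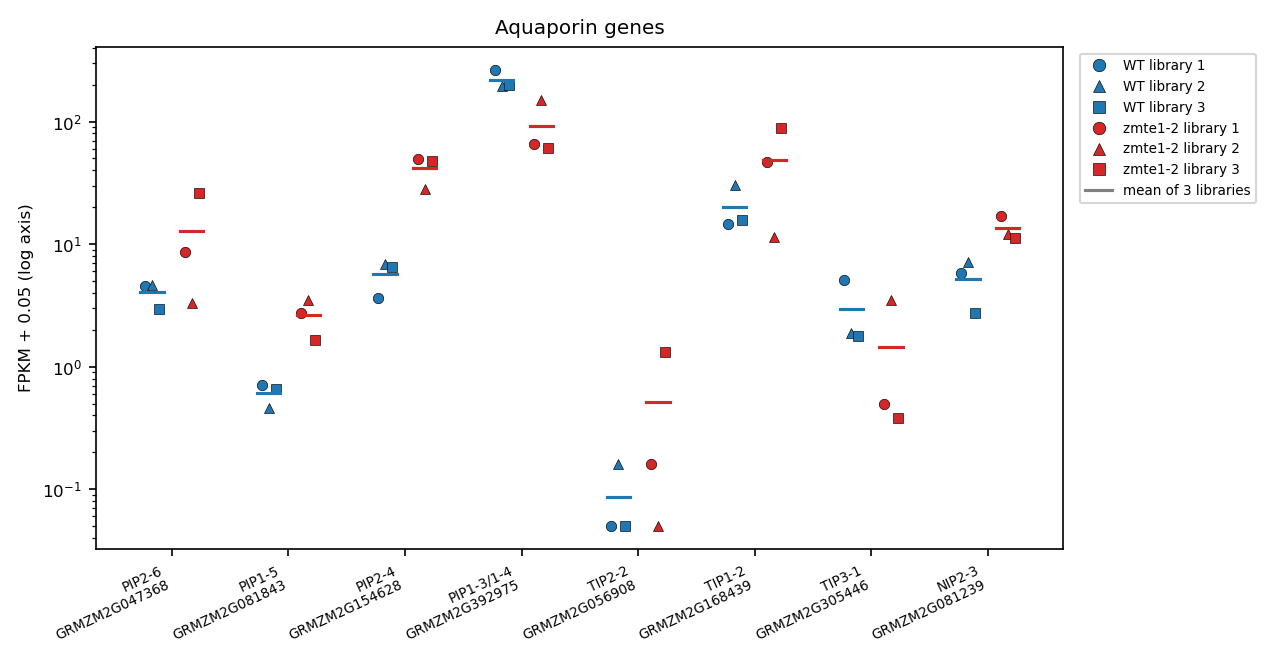
FPKM of the 8 aquaporin genes on a log axis (0.05 was added to show zeros), WT in blue and zmte1-2 in red, with 1 point per library and a bar at the mean of 3 libraries. PIP2-4, PIP1-5 and NIP2-3 lie higher in all mutant libraries and PIP1-3/PIP1-4 lower, whereas for PIP2-6, TIP1-2 and TIP3-1 the point of zmte1-2 library 2 falls among or beyond the WT points.

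For the remaining aquaporins zmte1-2 library 2 differed from the other mutant libraries. PIP2-6 (GRMZM2G047368), a second PIP2 aquaporin, was at 4.48, 4.57 and 2.91 FPKM in WT and at 8.63, 3.27 and 26.2 FPKM in zmte1-2. TIP1-2 (GRMZM2G168439), an aquaporin of the vacuolar membrane and the most abundant TIP of the table, was at 14.5, 30.2 and 15.7 FPKM in WT and at 46.6, 11.4 and 88.3 FPKM in zmte1-2. In both genes mutant libraries 1 and 3 were above all WT libraries and library 2 was not, and with all libraries neither was called (limma adjusted p = 0.183 for PIP2-6 and 0.307 for TIP1-2). Without library 2 both were called higher, with log2 fold changes of 1.82 (limma adjusted p = 0.0203) for PIP2-6 and 1.73 (limma adjusted p = 0.0201) for TIP1-2. TIP3-1 (GRMZM2G305446) belongs to a TIP group best known from the storage vacuoles of seeds, and it had the opposite layout, at 5.09, 1.82 and 1.74 FPKM in WT and 0.45, 3.45 and 0.33 FPKM in zmte1-2. With all libraries its log2 fold change was -1.07 and not called (limma adjusted p = 0.191), and without library 2 it was -1.79 and called lower (limma adjusted p = 0.0156). TIP2-2 (GRMZM2G056908) reached 1.28 FPKM in zmte1-2 library 3, was at or below 0.11 FPKM in the other libraries and was not tested.

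Of 4 tested potassium channels and transporters, KOR1, KAT1 and potassium transporter 8 fell in zmte1-2 and none rose by the limma call, while 1, AKT1, was higher at an unadjusted p under 0.05. Over all tested genes 34.2% fell and 6.02% rose, and 4 genes are too few to set a share against these. KOR1 (GRMZM2G156255, chromosome 6 from 115732874 to 115738363) is named as an outward-rectifying potassium channel, a type that in Arabidopsis releases potassium from root stelar cells into the xylem or from guard cells. It was at 11.9, 6.66 and 8.43 FPKM in WT and at 1.16, 2.22 and 1.41 FPKM in zmte1-2, with a wide gap between the genotypes. The log2 fold change was -2.17 (SE 0.39, limma adjusted p = 0.0148). KAT1 (GRMZM2G178356, chromosome 5 from 144352699 to 144356712), named after an inward potassium channel of guard cells in Arabidopsis, was at 3.83, 4.68 and 3.33 FPKM in WT and at 1.43, 0.59 and 0.69 FPKM in zmte1-2. Here, too, every mutant library was below every WT library, with a log2 fold change of -1.70 (SE 0.35, limma adjusted p = 0.0192). Neither KOR1 nor KAT1 was called on leaving out WT library 1, WT library 3 or zmte1-2 library 1 alone, or with the replicate block. In each of these fits 2 potassium channels were lower at an unadjusted p under 0.05.

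Potassium transporter 8 (GRMZM2G173387, chromosome 1 from 56441476 to 56448176), named as one of the high-affinity potassium uptake carriers, was the most abundant of the 5 genes described as potassium channels or transporters. It was at 25.1, 23.3 and 27.9 FPKM in WT and at 11.3, 10.2 and 13.6 FPKM in zmte1-2, with little spread within either genotype. The log2 fold change was -1.09 (SE 0.35, limma adjusted p = 0.0468), near the threshold. The call was lost without the FPKM minimum (limma adjusted p = 0.0527), with the replicate block and on leaving out any single library other than zmte1-2 library 2. Potassium transporter 19-like (GRMZM2G021725) was at 0.31 to 0.36 FPKM in WT and at 0.06 to 0.17 FPKM in zmte1-2, below the minimum for the test. AKT1 (GRMZM2G171279, chromosome 8 from 146628450 to 146633412), named after the inward channel of potassium uptake in Arabidopsis roots, differed from the other potassium genes. It was at 0.69, 3.43 and 1 FPKM in WT and at 5.55, 2.92 and 5.19 FPKM in zmte1-2, where library 2 lay below WT library 2. The log2 fold change of 1.36 (SE 0.53) was not called (limma adjusted p = 0.0667), and without zmte1-2 library 2 it was 1.62 and was called (limma adjusted p = 0.0314). It was also called without WT library 2 (1.88, limma adjusted p = 0.0351), but not without WT library 1 and zmte1-2 library 2 together (1.27, limma adjusted p = 0.0632).

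The pair of sulfate transporters, both of group 3 of the family, went in opposite directions. Sulfate transporter 3.3 (GRMZM2G395114, chromosome 2 from 4895674 to 4900685) fell in zmte1-2, from 10.8, 7.84 and 8.99 FPKM in WT to 2.04, 4.95 and 2.83 FPKM, with a log2 fold change of -1.42 (SE 0.41, limma adjusted p = 0.0383). Sulfate transporter 3.4 (GRMZM2G444801, chromosome 9 from 20343120 to 20348157) was at 27.4, 31.6 and 13.8 FPKM in WT and at a narrow 58.4, 58.8 and 51.5 FPKM in zmte1-2. No library overlapped between the genotypes for either gene. The log2 fold change of sulfate transporter 3.4, 1.28 (SE 0.44), missed the threshold at a limma adjusted p of 0.0529 and passed without zmte1-2 library 2 (1.24, limma adjusted p = 0.0434).

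Among the metal transporters, ZTP29 (GRMZM2G336783, chromosome 5 from 5056681 to 5061060), a member of the ZIP zinc transporter family, fell. It was at 2.01, 2.24 and 1.82 FPKM in WT and at 0.31, 0.42 and 0.48 FPKM in zmte1-2, a low level with little spread, and its log2 fold change was -1.48 (SE 0.24, limma adjusted p = 0.0127). ZTP29 passed the FPKM minimum only through WT. Zinc transporter 4 (GRMZM2G064382), named as another ZIP carrier, was at 5.60, 3.54 and 1.52 FPKM in WT and at 12.04, 3.31 and 28.9 FPKM in zmte1-2. Metal tolerance protein 5 (GRMZM2G014454), of the cation diffusion facilitators that move metal ions out of the cytosol, was the most abundant metal carrier, at 16.3, 50.2 and 40.03 FPKM in WT and 94.5, 26.7 and 92.7 FPKM in zmte1-2. Neither zinc transporter 4 (log2 fold change 1.61, limma adjusted p = 0.113) nor metal tolerance protein 5 (0.93, limma adjusted p = 0.241) was called with all libraries, and in both genes zmte1-2 library 2 lay within the WT range. Without it both were called higher, at 2.38 (limma adjusted p = 0.0138) and 1.53 (limma adjusted p = 0.0364). The metal-nicotianamine transporter, a carrier of metal chelates (GRMZM2G024196), was at 0.11 to 1.09 FPKM and was not tested.

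**Figure D3:**
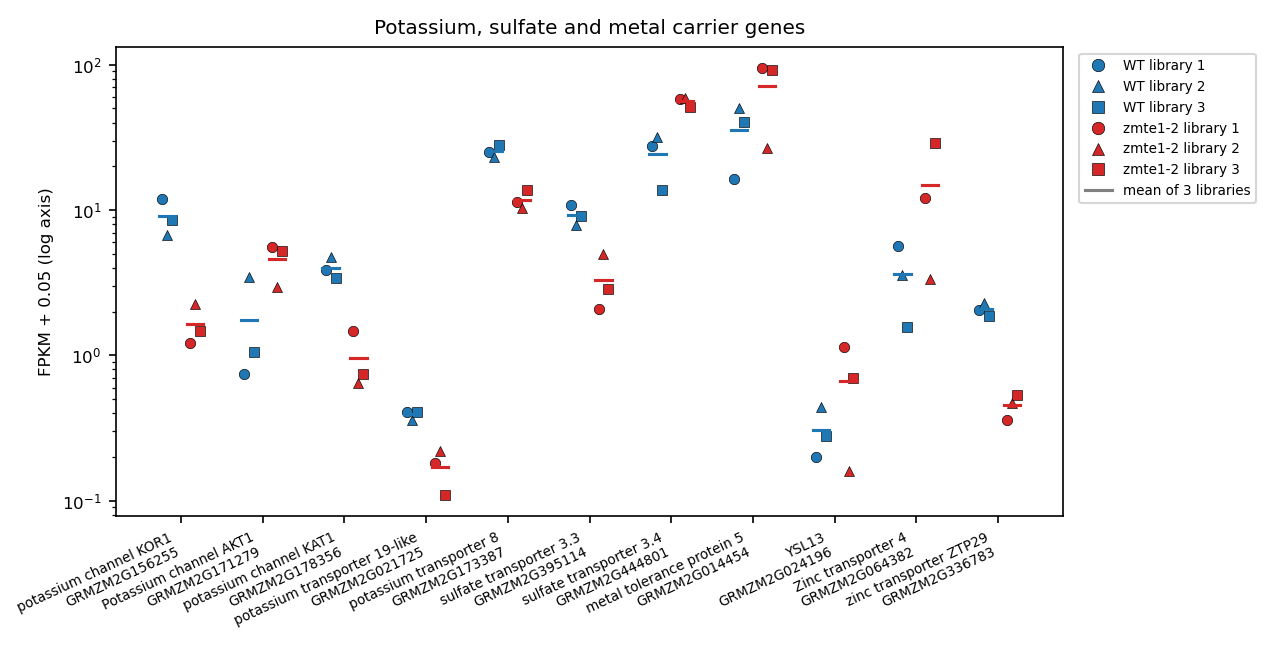
FPKM of the potassium channel, potassium transporter, sulfate transporter and metal transporter genes on a log axis (0.05 was added), WT in blue and zmte1-2 in red, with 1 point per library and a bar at the mean of 3 libraries. KOR1, KAT1, both potassium transporters, sulfate transporter 3.3 and ZTP29 lie lower in all mutant libraries and sulfate transporter 3.4 higher, while AKT1, zinc transporter 4 and metal tolerance protein 5 overlap.

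None of the 3 tested antiporters was called by limma with all libraries, and none had an unadjusted p under 0.05. K(+) efflux antiporter 4 (GRMZM2G169114), named as an exchanger of potassium for protons at organelle membranes, was the most abundant, at 10.1, 24.2 and 12.1 FPKM in WT and 52.1, 12.4 and 50.1 FPKM in zmte1-2. A pair of genes described only as antiporter or drug transporter had the same layout. The first (GRMZM2G135877) was at 4.81, 3.90 and 4.31 FPKM in WT and 21.9, 3.52 and 16.2 FPKM in zmte1-2, and the second (GRMZM2G363229) at 3.06, 4.80 and 3.79 FPKM and 13.3, 3.46 and 12.3 FPKM. In each of the 3 antiporters mutant libraries 1 and 3 lay above all WT libraries, while library 2 was within or below the WT range. Without library 2 all 3 were called higher, with log2 fold changes of 1.80 for K(+) efflux antiporter 4, 2.0 for GRMZM2G135877 and 1.62 for GRMZM2G363229 (limma adjusted p = 0.0155, 0.00645 and 0.0111).

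Organic cation/carnitine transporter 7 (GRMZM2G066801) had the same order of libraries, at 2.45, 7.06 and 4.51 FPKM in WT and 18.8, 4.87 and 17.9 FPKM in zmte1-2. Its log2 fold change was 1.36 with all libraries (limma adjusted p = 0.0953) and 1.97 without library 2 (limma adjusted p = 0.0126). The antiporters not tested were cation/H(+) antiporter 15 (GRMZM2G130831), at or below 0.17 FPKM in every library, and cation/calcium exchanger 1 (GRMZM2G340578), a calcium exchanger by its name, at 4.51, 0.77 and 0.91 FPKM in WT and 0.21, 12.6 and 0.13 FPKM in zmte1-2. Both were singled out after their values were seen. The exchanger was highest in zmte1-2 library 2, in which each of the 3 tested antiporters was lowest among the mutant libraries.

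**Figure D4:**
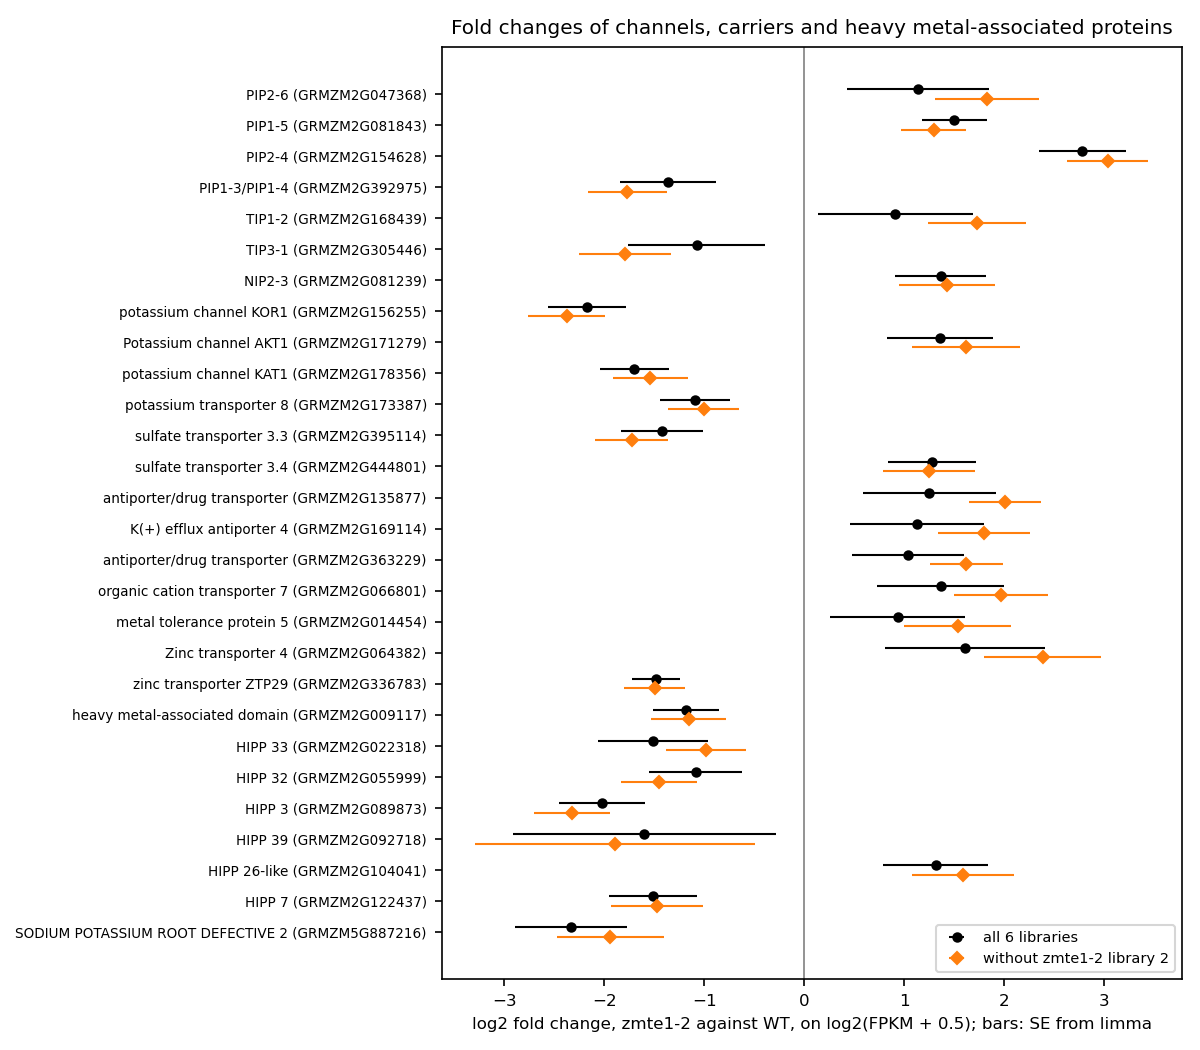
Log2 fold change of zmte1-2 against WT on the log2(FPKM + 0.5) scale for the 28 tested channels, carriers and heavy metal-associated proteins, with the standard error from limma as bars, from all 6 libraries (black circles) and without zmte1-2 library 2 (orange diamonds). Without library 2, the 3 antiporters, zinc transporter 4, metal tolerance protein 5 and TIP1-2 move further to the right, while the values of KOR1, KAT1, potassium transporter 8 and ZTP29 change little.

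Heavy metal-associated proteins are small proteins with a metal-binding domain, many of them with an isoprenyl anchor (HIPP), and are thought to carry or hold metal ions inside cells rather than across membranes. Of 8 tested, 4 fell and none rose by the limma call, against 34.2% and 6.02% of all tested genes. At an unadjusted p under 0.05, 1 was higher. HIPP3 (GRMZM2G089873, chromosome 5 from 32280127 to 32282176) was at 20.3, 13.4 and 15.1 FPKM in WT and 2.38, 5.74 and 3.29 FPKM in zmte1-2, with a log2 fold change of -2.02 (SE 0.43, limma adjusted p = 0.0206). HIPP7 (GRMZM2G122437, chromosome 10 from 109913505 to 109915809) was at 75.6, 47.5 and 66.7 FPKM in WT and 15.3, 20.2 and 31.9 FPKM in zmte1-2, with a log2 fold change of -1.51 (SE 0.44, limma adjusted p = 0.0383). A lower mutant level in every library was also seen for a protein with a heavy metal-associated domain (GRMZM2G009117), which fell from 3.08 to 3.20 FPKM in WT to 0.71 to 1.68 FPKM in zmte1-2 (log2 fold change -1.18, limma adjusted p = 0.0357). SODIUM POTASSIUM ROOT DEFECTIVE 2 (GRMZM5G887216), whose namesake in Arabidopsis is a phloem protein with such a domain, was at 5.88, 2.01 and 4.65 FPKM in WT and 0.25, 0 and 1.21 FPKM in zmte1-2 (log2 fold change -2.34, limma adjusted p = 0.0268).

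The most abundant of the class, HIPP33 (GRMZM2G022318), was at 92.3, 77.6 and 110 FPKM in WT and 39.1, 15.1 and 55.3 FPKM in zmte1-2. Its libraries did not overlap between the genotypes, yet its log2 fold change of -1.51 (SE 0.55) was not called (limma adjusted p = 0.0584). HIPP39 (GRMZM2G092718) varied widely within both genotypes, at 3.06, 45.8 and 56.4 FPKM in WT and 1.10, 9.93 and 19.7 FPKM in zmte1-2 (log2 fold change -1.60, SE 1.32, limma adjusted p = 0.295). Its lowest WT value was that of library 1, and without WT library 1 and zmte1-2 library 2 together it was called lower, with a log2 fold change of -3.18 (limma adjusted p = 0.0381), while omitting either alone gave no call.

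Among the genes matched by other words, the MATE proteins, proton-coupled exporters of organic compounds, were the largest class. Of 12 tested, 3 fell and 1 rose, against 34.2% and 6.02% of all tested genes. DETOXIFICATION 50 (AC206030.4_FG001) was at 7.43, 10 and 7.19 FPKM in WT and 3.50, 0.29 and 1.54 FPKM in zmte1-2 (log2 fold change -2.21, limma adjusted p = 0.0350). DETOXIFICATION 49 (GRMZM2G143400, log2 fold change -1.43, limma adjusted p = 0.0215) and DETOXIFICATION 16 (GRMZM2G174458, -1.13, limma adjusted p = 0.0273) fell from lower levels. Both passed the FPKM minimum only through WT. A gene named DETOXIFICATION 40 (GRMZM2G470075) rose in every mutant library, from 2.69, 5.33 and 3.82 FPKM to 24.2, 19.3 and 15.2 FPKM, with a log2 fold change of 2.19 (SE 0.40, limma adjusted p = 0.0161). The most abundant MATE genes are also named after DETOXIFICATION 40 but did not share its pattern, and reads common to such similar copies may have been counted for more than 1 of them. GRMZM2G075828 was at 36.4, 54.5 and 75.6 FPKM in WT and 127, 24.6 and 184 FPKM in zmte1-2, and GRMZM6G734131, on an unplaced scaffold, at 11.8, 38.5 and 39.4 FPKM and 117, 9.25 and 154 FPKM. Both were above all WT libraries in mutant libraries 1 and 3 and below all of them in library 2. Neither was called with all libraries (limma adjusted p = 0.464 and 0.393), and both were called higher without library 2 (0.0239 and 0.0147).

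Of 4 metal ion binding proteins, 2 fell and none rose, against 34.2% and 6.02% of all tested genes, and 4 genes are too few to set a share against these. AC217910.3_FG001 fell from 22.1, 22.4 and 17.6 FPKM to 4.92, 11.4 and 3.74 FPKM (log2 fold change -1.70, limma adjusted p = 0.0365) and GRMZM2G063342 from 14.3, 8.82 and 12.7 FPKM to 4.16, 6.12 and 5.07 FPKM (-1.14, limma adjusted p = 0.0493). Another metal ion binding protein (GRMZM2G086163) was at 3.87 to 12.3 FPKM in WT and at 64.4 FPKM in zmte1-2 library 2 alone, with 6.01 and 4.50 FPKM in libraries 1 and 3. Cationic amino acid transporter 6 (GRMZM2G126742), a carrier of basic amino acids by its name, fell by 0.89 on the log2 scale (limma adjusted p = 0.0470), a call that was lost without zmte1-2 library 2 (limma adjusted p = 0.0620). The desiccation-related genes, whose relatives protect dry cells in resurrection plants, went both ways. LEA14 (GRMZM2G042421) had the smallest p of all 49 genes and fell from 2.77, 2.30 and 2.57 FPKM to 0.19, 0.32 and 0.26 FPKM (log2 fold change -2.01, limma adjusted p = 0.00966, SE 0.24). The PCC13-62 precursor gene (GRMZM2G085260) rose from 0.46, 0.59 and 0.42 FPKM to 6.37, 1.81 and 3.18 FPKM (log2 fold change 1.97, SE 0.43, limma adjusted p = 0.0215). LEA14 and cationic amino acid transporter 6 passed the FPKM minimum only through WT, and the PCC13-62 precursor gene only through zmte1-2.

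How far the counts rested on single libraries was examined by leaving out each in turn, with the same 3987 genes tested. Without zmte1-2 library 2, 18 of the 49 genes were lower and 22 higher, against 48.9% lower and 20.2% higher of all tested genes, and 15 of the 16 lower and all 5 higher genes of the full comparison were among them. Of the 20 channels, carriers and exchangers, 7 were then lower and 13 higher. Without WT library 1 as well, 19 of the 49 were lower and 19 higher, against 44.8% and 18.9% of all tested genes. Left out alone, the other libraries reduced the lower calls. Without WT library 2 there were 9 lower and 5 higher calls, and without zmte1-2 library 3 there were 9 and 4. Without WT library 1 only LEA14 and ZTP29 were called, both lower, with 16 lower and 6 higher at an unadjusted p under 0.05. Neither omitting WT library 3 nor omitting zmte1-2 library 1 left any limma call among the 49 (at an unadjusted p under 0.05, 14 lower and 4 higher, and 15 lower and 5 higher). Over all genes these same omissions left 3 and 2 calls.

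Rescaling the libraries by the median of ratios raised the median log2 fold change of all tested genes by 0.86, from -1.08 to -0.22. The factors, 1.19 to 1.75 in WT and 0.63 to 0.77 in zmte1-2, came only from genes that the authors had called between the genotypes. Such factors take up a difference shared by the called genes, so this rescaling cannot tell which calls rest on library scale. Of the 16 genes that fell, only LEA14 and KOR1 were then still called lower (-1.40 and -1.30), and potassium transporter 8 was at -0.10. All 5 genes that rose were still called higher, and with 3 more genes, among them sulfate transporter 3.4 (log2 fold change 2.28, limma adjusted p = 0.0277), 8 were called higher in all.

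Within the mutant, the position of library 2 was examined across the 49 tested genes. In 15 of them (30.6%) mutant libraries 1 and 3 lay above all WT libraries and library 2 did not, against 12.8% of all tested genes. Library 2 was the lowest mutant library in 26 genes (53.1%, against 41.8% of all tested genes). It lay below the mean of libraries 1 and 3 by more than 1 on the log2 scale in 18 genes (36.7%, against 22.4%), among them all 3 tested antiporters and 7 of the 12 MATE genes. It lay above that mean by more than 1 in 6 genes (12.2%, against 21.0%). These shares are descriptions, since the libraries of 1 genotype were taken as the only replicates. The deviation of mutant library 2 from the other mutant libraries had the same sign as that of WT library 1 from the other WT libraries in 36 of the 49 genes (73.5%, against 64.4% of all tested genes), and the Pearson correlation of these deviations across the 49 genes was 0.446, against 0.517 across all tested genes. Genes measured in the same libraries are not independent, and no p is given.

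**Figure D5:**
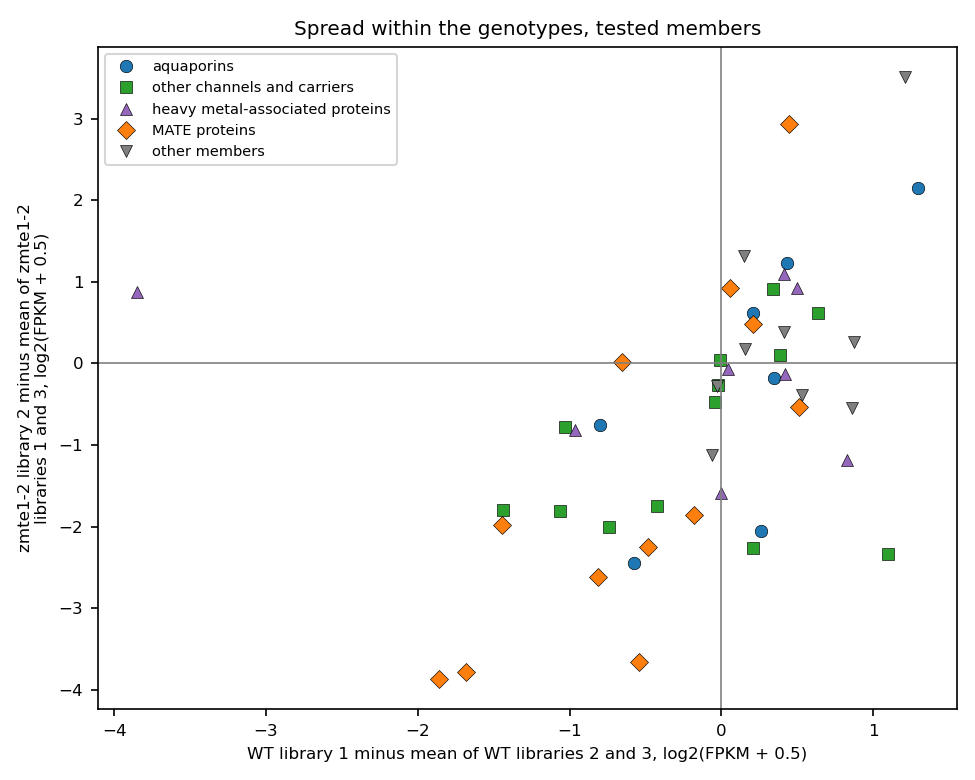
For each of the 49 tested genes, the level of zmte1-2 library 2 minus the mean of zmte1-2 libraries 1 and 3 (vertical axis) against the level of WT library 1 minus the mean of WT libraries 2 and 3 (horizontal axis), both on the log2(FPKM + 0.5) scale, with symbols by class. In 36 of the 49 genes the deviations had the same sign, and several MATE proteins and carriers lie at the lower left.

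Marker genes of other tissues and conditions moved with the libraries as well. The 11 listed genes of wounding and jasmonate, such as lipoxygenases, summed to 602, 1702 and 1568 FPKM in WT and to 4739, 887 and 4366 FPKM in zmte1-2, with library 2 the lowest mutant library, as in the 3 tested antiporters, TIP1-2 and metal tolerance protein 5. Of the 9 tested, 1 fell. Over all tested genes 34.2% fell and 6.02% rose, which applies beside each marker count given here. The 14 genes of green tissue summed to 671, 173 and 338 FPKM in WT and to 95.2, 134 and 112 FPKM in zmte1-2, and 6 of 12 tested fell. The 7 genes described by the Casparian strip, taken as root markers, came to 58.9 to 140 FPKM in WT and 27.3 to 46.3 FPKM in zmte1-2. Their sum was lower in every mutant library, and 1 of 6 tested fell. The 12 xylem genes, at 227 to 298 FPKM in WT and 259 to 428 FPKM in zmte1-2, overlapped in sum but went both ways, with 4 of 8 tested falling and 2 rising. The meristem gene knotted-1 was at 143, 75.3 and 108 FPKM in WT and 35.3, 81.7 and 16.97 FPKM in zmte1-2, with mutant library 2 within the WT range, and the 1 phloem gene was at 6.35 to 9.21 FPKM in WT and 7.57 to 27.3 FPKM in zmte1-2. The part of these tissues and of wounding in the results was not tested.

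For context, 19 listed genes of ion transport that the words of the choice did not match were read from the same fit. Of the 11 tested, 2 fell and 1 rose, against 34.2% and 6.02% of all tested genes. A gene named chloride channel-like protein CLC-g (GRMZM2G071119) fell from 15.1, 10.2 and 12.2 FPKM to 3.22, 7.74 and 4.10 FPKM (log2 fold change -1.30, limma adjusted p = 0.0497). Subunit E of the V-type proton ATPase, the vacuolar proton pump (GRMZM2G027007), fell from 2.34, 1.88 and 1.89 FPKM to 0.52, 0.92 and 1.05 FPKM (log2 fold change -0.95, limma adjusted p = 0.0421). Voltage-dependent anion channel protein 2 (GRMZM2G115049), a porin of the outer mitochondrial membrane, rose from at most 0.04 FPKM in WT to 25.03, 23.7 and 41.8 FPKM in zmte1-2 (log2 fold change 5.82, limma adjusted p = 0.00320). It passed the FPKM minimum only through zmte1-2. The next smallest p among higher genes was that of a glutamate receptor 3.3 (GRMZM2G066489), a cation channel of plants, whose log2 fold change of 0.85 did not pass (limma adjusted p = 0.0700).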

How the data were processed

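RNA-seq libraries of nodes (3 libraries of WT, B73, and 3 of zmte1-2, at 28 days) were analysed from 1 table of the 5546 genes that the authors had called between the genotypes. The authors deposited 1 FPKM column per library. For the aligner, the counting method and the genome build: not given in the sources used here. Coordinates are those of the deposited table. The labels and the Methods name different RNA extraction reagents. The deposited table also holds the authors' log2 ratios, p-values and false discovery rate scores in 12 columns, which were not used. Depth was read only from the steps between low FPKM values of genes with a single listed transcript.

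Genes that reached 1 FPKM in 3 or more libraries were tested two-sided on log2(FPKM + 0.5) with limma version 3.58.1 (R version 4.3.3), using lmFit and then eBayes with its trend option. This scale understates the change of weakly expressed genes. Because the listed genes had been selected on these same libraries, an adjusted p cannot be read as a rate of false calls. Tables were made with Python 3.11.15 and pandas 2.3.3. The fit was tested on simulated data. The members and lists were chosen with earlier results of these data known, and the split of the genes matched by other words was made after their descriptions were read. Named genes were those called, the 3 most abundant of each class and the 2 with the smallest p of each class, with exceptions stated. Gene names come from the deposited descriptions, 15 of which are from another species, and 53 of the 62 genes also matched a RefSeq record of Zm-B73-REFERENCE-NAM-5.0, used for names only. Alternatives were other pseudocounts and minimums, rescaling, other variance models, a replicate block, omitted libraries and other memberships.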

Additional observations from a re-analysis of the deposited data

How the results depend on the processing

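With each library left out in turn, the 49 tested genes gave 0 to 18 lower and 0 to 22 higher calls and all 3987 tested genes 1 to 1949 lower and 1 to 805 higher. With WT library 1 and zmte1-2 library 2 both left out, 19 of the 49 genes and 755 of all 3987 were higher. With a minimum of 5 FPKM, 29 of the 62 genes were tested, and 9 were lower and 3 higher. Of all genes 2128 were then tested, with 782 lower and 178 higher. Median-of-ratios rescaling gave 2 lower and 8 higher calls among the 49 genes, and 260 and 470 among all 3987. Restricting the list to channels, carriers and heavy metal-associated proteins left 9 lower and 3 higher of 28 tested. Restricting it to channels and carriers, an alternative chosen after seeing the data, left 5 and 3 of 20 tested. Over all tested genes 34.2% fell and 6.02% rose. Under a pseudocount of 1 all 21 calls were kept, and under one of 0.1, 14 lower and 4 higher were. The metal ion binding protein GRMZM2G086163 had a log2 fold change of 0.81 that ranged from -0.36 (without zmte1-2 library 2) to 1.49 (without zmte1-2 library 3) with single libraries left out and was 1.76 after rescaling, and it was called in none of these fits.

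The library numbers are shared by the genotypes, but whether they pair the libraries is not stated. Deviations of same-numbered libraries correlated at -0.30, -0.40 and 0.41. These values cannot settle it, since the deviations of the few libraries of a genotype sum to 0 and so depend on each other. With the number as a replicate block, limma called 0 lower and 0 higher of the 49 tested genes (17 and 5 at an unadjusted p under 0.05) and 1 lower and 1 higher of all 3987.

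Precision is limited by 3 libraries per genotype and by low levels, 13 of the 62 genes being too low to test. Family members outside the table of called genes were not analysed here, so the families are described in part.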
